A study of Mus musculus with 9 samples.

Results

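The PYHIN genes, also called the Ifi200 family, were followed in mouse bone marrow-derived macrophages (BMMs), library by library. The members were the rows of the count table whose gene name was Ifi203, Ifi204, Ifi206, Ifi207, Ifi208, Ifi209, Ifi211, Ifi213, Mndal or Aim2. These 10 names matched 10 of 51826 rows, and all 10 passed the filter on low counts that left 15429 genes. BMMs are macrophages grown in culture from bone marrow precursors. The study held 3 groups of 3 libraries. Control BMMs were untreated, and the labels give them no culture time or medium. CM BMMs spent 48 h in conditioned medium from K7M2, a mouse osteosarcoma cell line. CM plus DTM BMMs spent 48 h in the same conditioned medium together with DTM, an agent that the labels do not spell out. No genotype, strain, sex or age of the mice is given, and no control received DTM alone. A difference from control can thus include one of time or medium. Whether the libraries within a group stem from different cultures or mice is not stated, and the p-values therefore describe only how far these libraries spread, which may be technical.

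Typical PYHIN proteins pair a pyrin domain, which binds other pyrin domains, with a HIN-200 domain, which binds DNA, but not every gene of the family encodes both. Aim2 is the best known: it detects double-stranded DNA in the cytosol and joins through the adaptor Pycard (ASC) to caspase-1, which matures interleukin-1 beta and interleukin-18 and cuts gasdermin D to open the cell membrane. Ifi204 is the mouse gene most often compared with human IFI16, a nuclear and cytosolic DNA sensor that signals through STING. Most of the family is induced by type I interferon, and in the mouse it forms a cluster of neighbouring, partly duplicated genes. In the RefSeq annotation the members lay on chromosome 1 in the order Aim2, Ifi206, Ifi213, Ifi209, Ifi208, Ifi207, Ifi204, Mndal, Ifi211 and Ifi203.

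The bases before the annotated starts are shown because interferon acts on such genes through short elements close to the start, and because the members differed in how far they moved. RefSeq promoter windows (GRCm38.p6, 250 bases before to 50 bases after a start) were present for 9 of the 10 members, all except Ifi204, in 11 windows. The files give no coordinates, and the submitters' processing notes name another mouse build, so these positions belong to RefSeq and not to the counts. Each line gives 100 bases on the gene's own strand, 5′ to 3′, ending at the base before the start. Capitals mark the match to the core of the interferon-stimulated response element (ISRE), GAAANNGAAA, or in Ifi209 the nearest 10 bases to it. A near match in Aim2, given below, is left in small letters.
Ifi206, chr1:173491319-173491418, minus strand: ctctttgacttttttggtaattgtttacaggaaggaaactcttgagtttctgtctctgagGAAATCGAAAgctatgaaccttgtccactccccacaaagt
Ifi213, chr1:173599273-173599372, minus strand: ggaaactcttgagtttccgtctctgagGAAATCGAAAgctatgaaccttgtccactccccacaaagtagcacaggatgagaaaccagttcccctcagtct
Ifi208, chr1:173673565-173673664, plus strand: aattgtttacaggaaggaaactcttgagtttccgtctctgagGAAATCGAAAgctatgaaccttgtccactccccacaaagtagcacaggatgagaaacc
Ifi209, chr1:173630759-173630858, plus strand: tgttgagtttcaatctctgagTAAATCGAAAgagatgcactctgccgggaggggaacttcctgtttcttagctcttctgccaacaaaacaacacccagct
Ifi211, chr1:173913047-173913146, minus strand: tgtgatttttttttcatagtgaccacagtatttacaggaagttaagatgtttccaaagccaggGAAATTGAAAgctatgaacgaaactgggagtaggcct
Ifi203, the downstream of its 2 starts, chr1:173942493-173942592, minus strand: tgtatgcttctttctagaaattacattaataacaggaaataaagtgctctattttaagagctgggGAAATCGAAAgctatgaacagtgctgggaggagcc
Mndal, the upstream of its 2 starts, chr1:173880188-173880287, minus strand: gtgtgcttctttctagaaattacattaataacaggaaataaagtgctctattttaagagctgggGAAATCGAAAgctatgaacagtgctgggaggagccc
Ifi207, chr1:173741810-173741909, minus strand: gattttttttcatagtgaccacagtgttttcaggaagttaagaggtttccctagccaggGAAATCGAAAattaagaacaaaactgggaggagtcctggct
Aim2, chr1:173420504-173420603, plus strand: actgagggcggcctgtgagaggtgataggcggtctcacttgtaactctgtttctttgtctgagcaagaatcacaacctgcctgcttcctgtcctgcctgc

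The ISRE core, searched on both strands, was found in windows of 7 of the 9 members. That was 8 of their 11 windows, against 1131 of all 32851 RefSeq windows (3.44%). In Ifi206, Ifi213, Ifi208, Ifi207, Mndal and Ifi203 the 10 bases were the same, GAAATCGAAA, and began 35 to 73 bases before the start. That exact string was in 16 of all 32851 windows, of which 6 were windows of members and 1 was that of Ifi214, another gene of the cluster. In Ifi211 the string was GAAATTGAAA, which differs from it by C6T, counted from the 5′ end of the string. In Ifi209 it was TAAATCGAAA, which differs by G1T and falls outside the ISRE core. In the window of Aim2 the nearest string to GAAATCGAAA was GACAAAGAAA on the opposite strand, 51 bases before the start, with 3 mismatches (A3C, T5A and C6A). Positions 5 and 6 are free in the ISRE core. Against that core the string of Aim2 thus differs only by A3C, as that of Ifi209 differs only by G1T. How many of all windows hold such a near match to the core was not counted. The exact string was chosen after the members' windows had been seen, and its share in them is a description. Also searched were the GAS core, TTCNNNGAA, and an ETS-IRF composite, GGAANNGAAA. Each was in 0 of the members' 11 windows, against 8.3% and 2.72% of all windows.

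**Figure D1:**
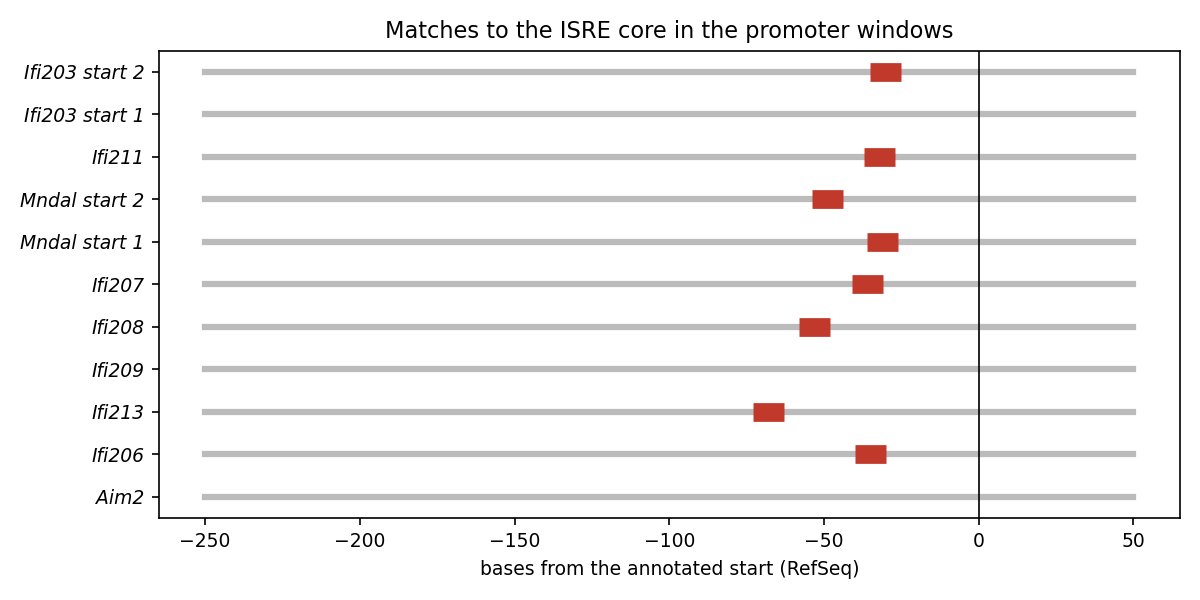
Positions of the ISRE core GAAANNGAAA (red) in the RefSeq promoter windows of 9 PYHIN genes (grey bars). The horizontal axis gives bases from the annotated start. The matches of Ifi206, Ifi213, Ifi208, Ifi207, Mndal, Ifi211 and Ifi203 lie between 35 and 73 bases before the start, as does that of the downstream start of Mndal (start 2), and the windows of Ifi209, Aim2 and the upstream start of Ifi203 (start 1) have no match.

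Members also shared longer stretches before their starts. The windows of Ifi206 and Ifi208 had 182 identical bases in a row before the start, and each of them shared 135 with Ifi213. Mndal and Ifi203 shared 96, and Ifi207 and Ifi211 shared 31. Aim2 shared at most 9 bases with any other member. The matches to the core are therefore not independent of each other.

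The values were raw read counts, with 43084296 to 50407973 counts per library. Levels are given as CPM, which are library-size-scaled counts computed with edgeR's TMM factors. All 11 macrophage markers on the list, among them Lyz2, Csf1r and Adgre1, were above 1 CPM in every library. Their levels still differed between groups. Higher in CM than in control were 2 of the 11, against 4.04% of all genes: Fcgr1 and Mertk (log2 fold changes 1.84 and 0.78, adjusted p = 0.0485 each in edgeR). Csf1r and Adgre1 had all CM libraries below all control libraries but were not called. Itgam stood at 608 to 1252 CPM in CM and at 86.0 to 347 CPM with DTM, also not called. CM 1 and CM plus DTM 1 stood apart from the other libraries of their groups, with correlations of log2 CPM of 0.939 to 0.940 and 0.919 to 0.936, while the other within-group pairs had 0.973 to 0.986. Summed neutrophil markers were 203 to 731 CPM in control, 1.60 to 287 CPM in CM and 354 to 1137 CPM in CM plus DTM, with the extremes in CM 1, where 6 of 10 markers had no count, and in CM plus DTM 1. Summed stromal markers were 837 to 1193 CPM in control, 163 to 828 CPM in CM and 840 to 958 CPM in CM plus DTM. The 5 mast cell and basophil markers summed to 1.67 to 2.56 CPM in control, to 2.21, 29.4 and 31.6 CPM in CM 1, 2 and 3 and to 5.47 to 9.36 CPM in CM plus DTM. Of them Mcpt8, a basophil protease gene, was higher in CM than in control (log2 fold change 3.63, adjusted p = 0.0346 in edgeR), with CM 1 inside the control range. The other 4 were under 1 CPM in every library, so these sums are almost those of Mcpt8 alone. Kit, the only other marker of this list that was tested, was not called (log2 fold change -0.67, adjusted p = 0.705 in edgeR). The part of these other cells in the results below was not tested. In such bulk samples fewer cells of a type and less RNA per cell cannot be told apart.

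CM was set against control to read how medium from the tumour cells changed the macrophages. The PYHIN family rose almost as a whole. Summed over the 10 members, the level went from 82.6, 129 and 141 CPM in the control libraries to 628, 739 and 710 CPM in the CM libraries. Tested in edgeR (quasi-likelihood, p adjusted by Benjamini-Hochberg over all genes), 9 of 10 members were higher, against 4.04% of all genes tested. None was lower, against 1.57% of all genes. The median log2 fold change was 3.53 over the members and -0.01 over all genes tested. All 10 members had CM libraries above all control libraries, against 18.3% of all genes.

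Ifi206, Ifi213 and Ifi208 were nearly silent in control and changed most. Their individual roles are less well described than that of Aim2. Ifi206 stood at 0.178, 0.875 and 0.346 CPM in the 3 control libraries, from 9, 50 and 17 counts. It reached 29.5, 65.7 and 65.4 CPM in CM. The lowest CM library was far above the highest control library, and the log2 fold change of 6.82 (113-fold, SE 0.68, adjusted p = 0.00145) put the gene at rank 20 of 15429 by rise.

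Ifi213 stood at 0.158, 0.403 and 0.407 CPM in control, from 8, 23 and 20 counts. It stood at 20.6, 37.2 and 36.9 CPM in CM. The groups were far apart, with CM 1 below the other CM libraries, and the log2 fold change was 6.60 (SE 0.78, adjusted p = 0.00287). Ifi208 went from 0.0790, 0.105 and 0.509 CPM, which rest on 4, 6 and 25 counts, to 9.68, 15.9 and 13.6 CPM. Its log2 fold change of 5.82 (SE 0.83, adjusted p = 0.00553) carries the widest SE of the 10, and control 3 lay well above the other control libraries. These 3 genes are the ones whose whole windows before the start, of which the lines above show only the last 100 bases, shared identical runs of 135 bases or more. Whether the shared runs bear on the rise was not tested.

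Ifi209, Ifi211 and Ifi204 had a low but clear level in control. Ifi209 stood at 1.68, 4.15 and 3.34 CPM in control and at 52.5, 59.8 and 54.9 CPM in CM. The 3 CM libraries lay close together, and the log2 fold change was 4.19 (SE 0.59, adjusted p = 0.00535). This value was above those of 6 other members, a difference that was not tested, and the window of Ifi209 is the one with TAAATCGAAA in place of the ISRE core. Any link between the window and the rise was likewise not tested. Ifi211 went from 7.15, 8.30 and 12.2 CPM to 86.8, 122 and 117 CPM. The groups did not overlap, and the log2 fold change was 3.56 (SE 0.44, adjusted p = 0.00301).

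Ifi204, the member most often set beside human IFI16, stood at 11.3, 16.6 and 20.3 CPM in control. In CM it stood at 170, 197 and 182 CPM. The spread within CM was small, 183 ± 13.2 CPM (SD, n = 3), against 16.1 ± 4.51 CPM in control. The log2 fold change was 3.51 (SE 0.43, adjusted p = 0.00294).

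Ifi203, Mndal and Ifi207 rose with smaller fold changes. Mndal is named for its likeness to human MNDA, a nuclear antigen of myeloid cells. Ifi203 went from 2.92, 5.36 and 5.60 CPM to 43.3, 44.6 and 41.6 CPM, and its CM libraries were nearly equal. Its log2 fold change was 3.22 (SE 0.41, adjusted p = 0.00356). Mndal went from 5.61, 7.74 and 8.23 CPM to 32.9, 30.8 and 36.0 CPM, with a log2 fold change of 2.21 (SE 0.27, adjusted p = 0.00305). Both kept a wide gap between the groups.

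Ifi207, which per kilobase of transcript led the family in control, stood there at 42.2, 74.4 and 74.5 CPM. It stood at 157, 148 and 144 CPM in CM. All CM libraries were above all control libraries, but the log2 fold change was only 1.23 (SE 0.22, adjusted p = 0.0146). This call was lost without CM 2 (adjusted p = 0.0553), without CM 3 (adjusted p = 0.0502) and under scaling by total counts (adjusted p = 0.0510), and the adjusted p ranged from 5.96e-05 to 0.0553 over 19 alternatives. The other 8 calls held under all 19.

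Aim2, the inflammasome sensor, had the smallest fold change of the 10. It stood at 11.3, 10.8 and 15.4 CPM in control and at 25.4, 17.6 and 17.9 CPM in CM. The CM libraries were all above the control libraries, by a small margin between control 3 and CM 2. The log2 fold change of 0.70 (SE 0.24, 95% interval 0.16 to 1.25) did not pass the test (adjusted p = 0.133), and over 19 alternatives the adjusted p was between 0.0619 and 0.375. CM 1 held the highest level and lies apart from CM 2 and CM 3.

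**Figure D2:**
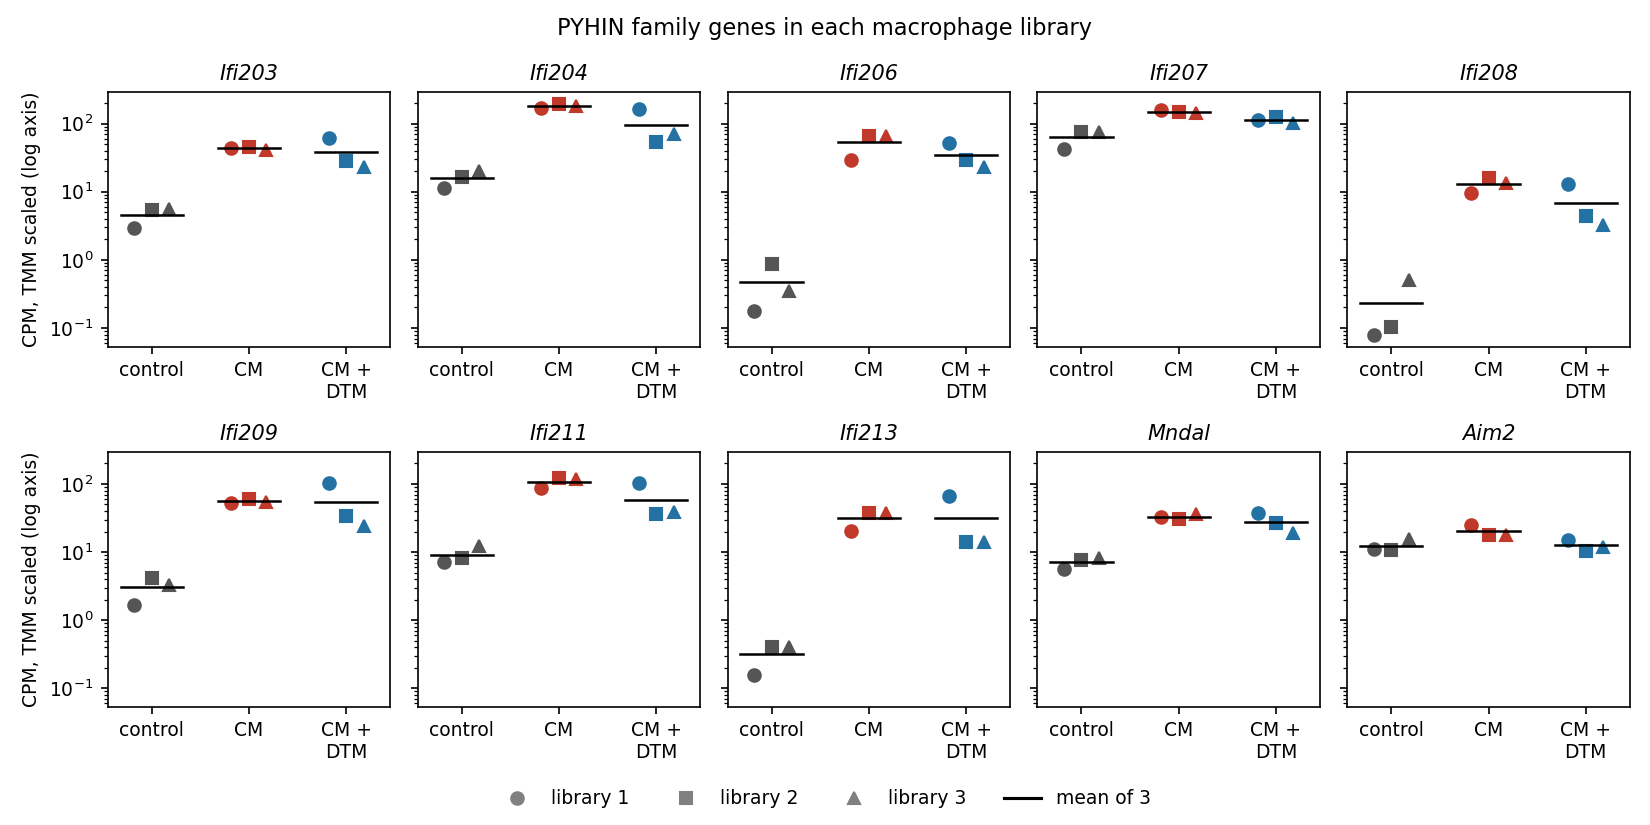
Level of each of the 10 PYHIN genes in every library, as TMM-scaled CPM on a log axis. Points are single libraries, with a symbol for each library number, and lines are means of 3. Ifi206, Ifi208 and Ifi213 sit below 1 CPM in all control libraries and above 9 CPM in all CM libraries, while Aim2 stays between 10.5 and 25.4 CPM throughout.

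Because the members rose by unequal amounts, the make-up of the family changed. Ifi207 supplied 51.1%, 57.8% and 52.9% of the members' read counts in the control libraries and 25.0%, 20.1% and 20.3% in CM. Ifi204 went from 13.7%, 12.9% and 14.4% to 27.1%, 26.6% and 25.7%, and then held more of the counts than Ifi207 in every CM library. Aim2 fell in share, from 13.6%, 8.39% and 10.9% to 4.05%, 2.38% and 2.52%, while its CPM was higher in every CM library than in any control library. Ifi206 held under 1% of the members' counts in each control library and 4.70%, 8.90% and 9.21% in CM. These shares are not corrected for transcript length.

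**Figure D3:**
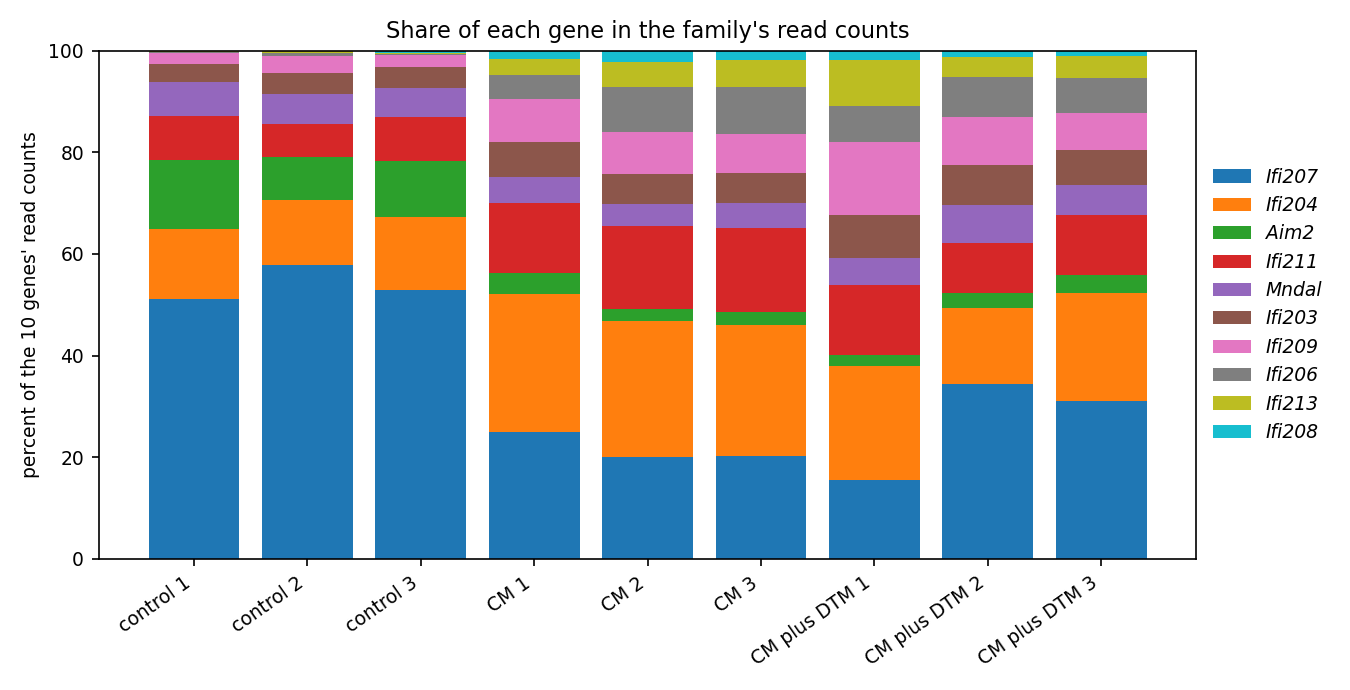
Share of each gene in the read counts of the 10 PYHIN genes, as percent of the members' counts in each library. Ifi207 (blue) makes up 51.1% to 57.8% in control and 20.1% to 25.0% in CM, and CM plus DTM 1 has the smallest share of Ifi207, at 15.4%.

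Per kilobase of transcript (GENCODE vM21), the order of the members' levels also changed. In control, Ifi207 led with 18.6 ± 5.44 CPM per kb (SD, n = 3), above all libraries of Ifi204 at 7.01 ± 1.97. Ifi204, Ifi211, Aim2 and Mndal followed, and each of these overlapped with its neighbour in the order. Ifi203 and Ifi209 came next and overlapped with each other, and Ifi206, Ifi213 and Ifi208 were last, at 0.153, 0.117 and 0.0773 CPM per kb, and could not be separated.

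In CM the order per kb was Ifi204 at 79.8 ± 5.76, Ifi211 at 60.8 ± 10.6 and Ifi207 at 43.8 ± 1.94 CPM per kb, with no overlap between these 3. Ifi206, Mndal and Ifi209 lay together at 17.6, 16.4 and 16.2 CPM per kb and overlapped. Ifi203 and Ifi213 followed at 11.5 CPM per kb each. Aim2 fell from the fourth place to the ninth, at 7.15 ± 1.56 CPM per kb, where it overlapped with Ifi213 and lay above only Ifi208 at 4.36 ± 1.05. In CM plus DTM, Ifi204, Ifi207 and Ifi211 led at 41.9 ± 26.1, 33.1 ± 3.35 and 32.9 ± 20.8 CPM per kb and overlapped.

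The comparison of CM plus DTM with control used the same control libraries, so its values stand beside those of CM and are no separate support for them. Here 8 of 10 members were higher, against 1.5% of all genes, and none was lower, against 0.946%. The median log2 fold change was 2.85 over the members and 0.01 over all genes tested. In 9 members all CM plus DTM libraries were above all control libraries, against 16.7% of all genes, and Aim2 was the exception. The log2 fold changes were largest for Ifi213 at 6.59 (SE 0.78, adjusted p = 0.00860) and Ifi206 at 6.19 (SE 0.66, adjusted p = 0.00518). Ifi208 had 4.90 (adjusted p = 0.0214), Ifi209 4.15 (adjusted p = 0.0145), Ifi203 3.03 (adjusted p = 0.0123), Ifi211 2.67 and Ifi204 2.58 (adjusted p = 0.0195 each), and Mndal 1.97 (adjusted p = 0.0133).

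Ifi207 and Aim2 were not called against control by edgeR. Ifi207 stood at 113, 125 and 102 CPM with DTM, above every control library, and had a log2 fold change of 0.83 (SE 0.22, adjusted p = 0.0798). DESeq2 called it (adjusted p = 0.0162), and the adjusted p ranged from 0.0162 to 0.207 over 19 alternatives. Aim2 stood at 15.0, 10.5 and 12.03 CPM with DTM, inside the control range apart from CM plus DTM 2 just below it, and its log2 fold change was 0.00 (adjusted p = 0.995). The number of members called rested on all 3 control libraries: without control 1 or without control 2 only Ifi206 was called, and without control 3 Ifi206, Ifi208 and Ifi213 were. The log2 fold changes kept their size in these fits, at 6.26 to 6.77 for Ifi213, 3.85 to 4.41 for Ifi209 and 2.37 to 2.78 for Ifi204, and those of the 9 members other than Aim2 remained above 0.

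**Figure D4:**
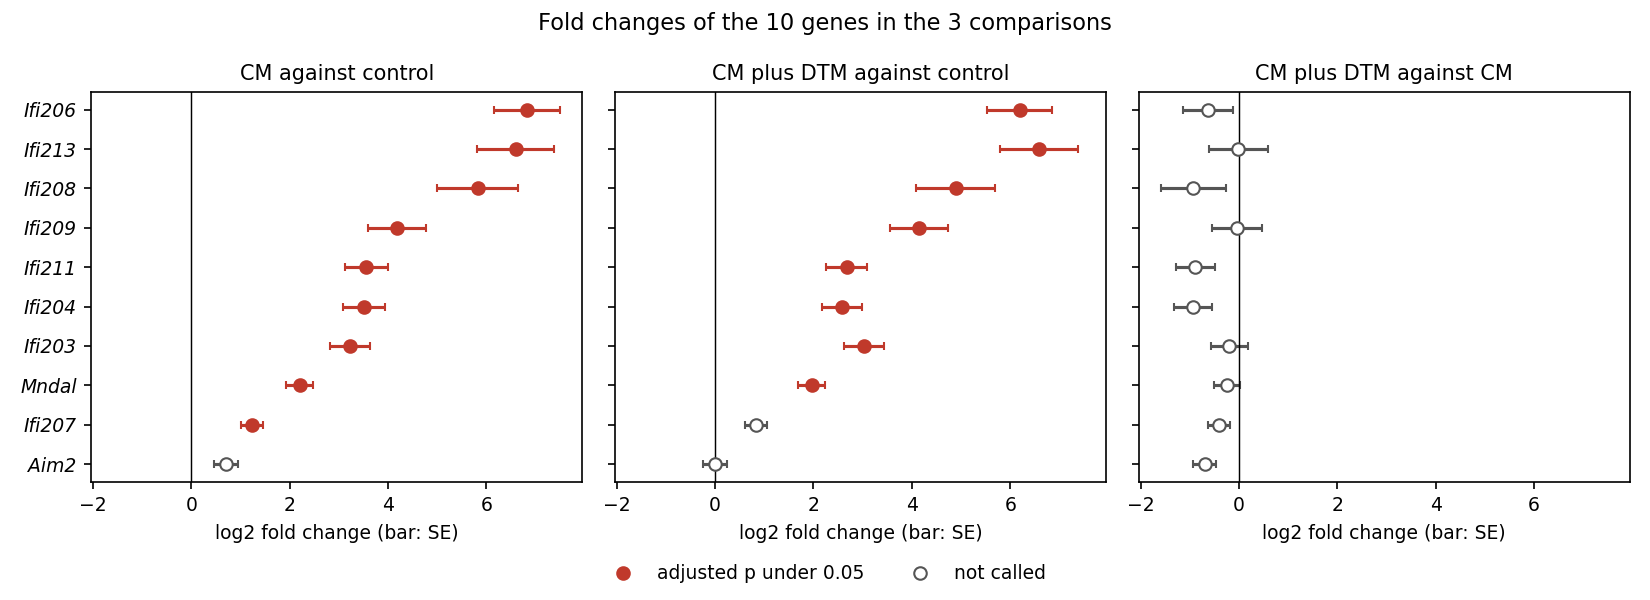
Log2 fold changes of the 10 PYHIN genes in the 3 comparisons, with bars for the SE. Filled points passed an adjusted p of 0.05 in edgeR: 9 genes for CM and 8 for CM plus DTM, each set against control, and 0 for the contrast of both media.

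The effect of DTM in the presence of the conditioned medium was read from CM plus DTM and CM. No member was called by edgeR, DESeq2 or limma-voom. Over all genes edgeR called 0 in either direction, limma-voom called 0 and DESeq2 called 2828. At an unadjusted p under 0.05, 2 members were lower, Ifi204 and Aim2, against 14% of all genes, and 0 were higher, against 14.3%. The median log2 fold change was -0.51 over the members and -0.03 over all genes tested. All CM plus DTM libraries were below all CM libraries in Ifi204, Ifi207 and Aim2, that is in 3 of 10 members against 17.8% of all genes.

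The single libraries of CM plus DTM were far apart in most members. Ifi204 stood at 165, 54.2 and 69.5 CPM with DTM, against 170 to 197 CPM in CM. CM plus DTM 1 was thus close to the CM level, and the other 2 were far below it. The log2 fold change was -0.93 (SE 0.39, 95% interval -1.81 to -0.05, adjusted p = 0.156). Ifi211 stood at 102, 35.7 and 38.9 CPM with DTM, with a log2 fold change of -0.88 (SE 0.40, adjusted p = 0.183). Ifi208 stood at 13.0, 4.39 and 3.24 CPM, with -0.92 (SE 0.66, adjusted p = 0.385).

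In other members CM plus DTM 1 lay above every CM library. Ifi213 stood at 65.7, 14.2 and 14.2 CPM with DTM, against 20.6 to 37.2 CPM in CM, so that its log2 fold change of -0.01 (95% interval -1.35 to 1.33) averaged libraries on either side of CM. Ifi209 stood at 105, 34.4 and 23.8 CPM, with a log2 fold change of -0.04 (SE 0.51, adjusted p = 0.973). Ifi203 stood at 62.1, 28.3 and 22.8 CPM, with -0.19 (95% interval -1.04 to 0.65). Mndal stood at 38.0, 27.1 and 19.1 CPM, with -0.24 (SE 0.26, adjusted p = 0.576). In each of these 4 genes CM plus DTM 1 was the highest of all 9 libraries, and CM plus DTM 2 and 3 were below every CM library.

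Ifi206 stood at 52.4, 28.9 and 22.9 CPM with DTM, within and below the CM range, and had a log2 fold change of -0.63 (SE 0.51, adjusted p = 0.450). Ifi207 did not show the split, and in Aim2 it was small, with CM plus DTM 1 the highest at 15.0 CPM. The CM plus DTM libraries of these genes stood at 102 to 125 and 10.5 to 15.0 CPM, all below CM. Ifi207 had a log2 fold change of -0.40 (SE 0.22, adjusted p = 0.256) and Aim2 one of -0.70 (SE 0.24, 95% interval -1.25 to -0.15, adjusted p = 0.104).

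**Figure D5:**
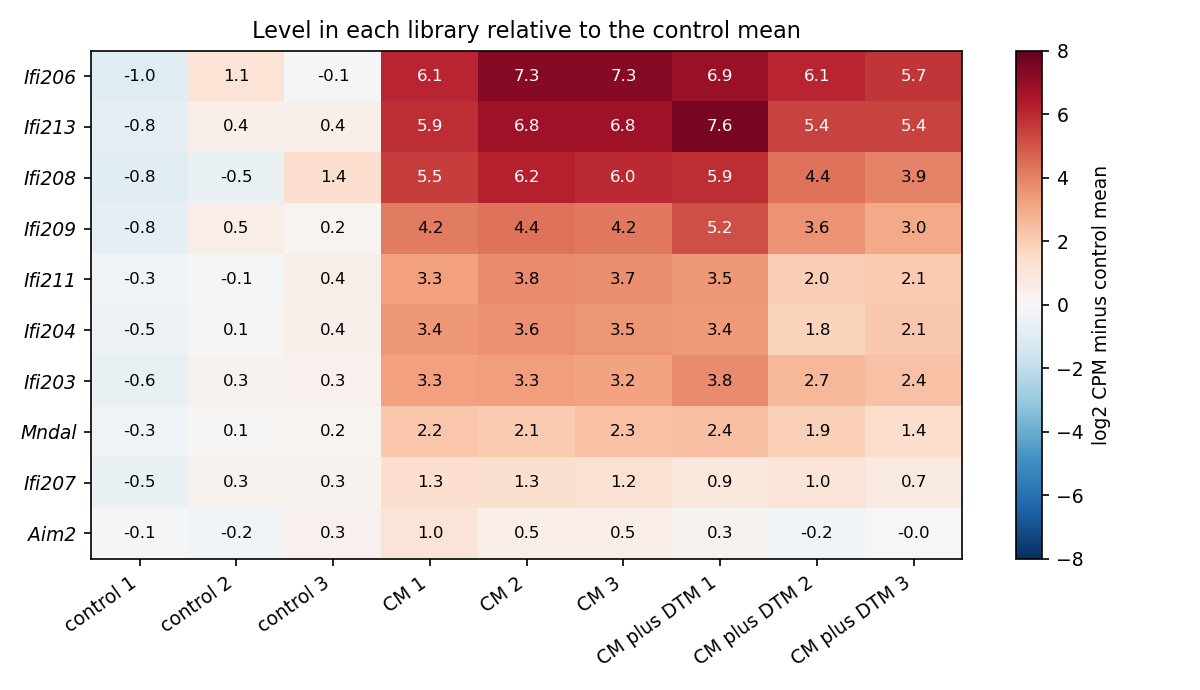
Level of each PYHIN gene in each library as log2 CPM minus the mean log2 CPM of the 3 control libraries, on a colour scale from blue (below control) to red (above). CM plus DTM 1 is redder than CM plus DTM 2 and 3 in all genes except Ifi207, and reaches 7.6 for Ifi213 against 5.4 in the other 2.

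CM plus DTM 1 held the highest level of its group in 9 of 10 members, Ifi207 being the exception. Its log2 CPM minus the mean of the other 2 had a median of 1.36 over the members and of -0.01 over all genes. The same library had the highest summed neutrophil markers, 1137 CPM against 511 and 354 CPM in the other 2, and of 10 neutrophil markers none was under 1 CPM there, as in CM plus DTM 2. The order differed in control. There control 1 had the highest sum, 731 CPM against 324 and 203 CPM, and was the lowest control library in 9 of 10 members. CM 1, with a sum of 1.60 CPM, had a median difference of -0.14 from the other CM libraries over the members. A link between these markers and the members was not tested. Without CM 1 and CM plus DTM 1, an alternative chosen with earlier results of these data known, 3 members were lower with DTM than in CM, against 3.17% of all genes. They were Ifi211 at -1.73 (adjusted p = 0.0194), Ifi204 at -1.67 (adjusted p = 0.0253) and Ifi213 at -1.44 (adjusted p = 0.0359). Over all alternatives the adjusted p of these genes ranged from 0.0194 to 0.422, from 0.0253 to 0.374 and from 0.0359 to 0.998. In that fit 9 members were higher in CM than in control, against 9.62% of all genes, and 8 in CM plus DTM, against 4.07%.

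In the other groups library 1 also differed. Control 1 was the lowest control library in 9 of 10 members, with a median difference in log2 CPM of -0.86 from the mean of the other 2. CM 1 was the lowest CM library in 6 members and the highest in 2, with a median difference of -0.14. Ifi206 had the largest gap there, 29.5 CPM in CM 1 against 65.7 and 65.4 CPM. The labels do not say that a replicate number ties libraries of different groups to each other.

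Across the 9 libraries the members other than Aim2 moved together, with Pearson's r of log2 CPM between 0.894 and 0.998 and a median of 0.970 over 36 pairs. The 9 pairs with Aim2 had r between 0.437 and 0.681, with a median of 0.544. These values describe 9 points that share library and depth and fall into groups, and the gap between control and the other groups enters all of them. Among 11184 other genes, those whose profile was most like the mean profile of the 9 were Ddx58, which encodes the RNA sensor RIG-I (r = 0.997), the guanylate-binding protein gene Gbp2 (r = 0.993), the kinase gene Cmpk2 (r = 0.993), Ifi44 (r = 0.993), Ifit3b (r = 0.991) and Ifih1, which encodes the RNA sensor MDA5 (r = 0.991). Ddx58 stood at 30.3 ± 6.24 CPM in control, 172 ± 20.5 CPM in CM and 129 ± 42.4 CPM in CM plus DTM. The genes most like Aim2 were Sowahc (r = 0.969), Nsd3 (r = 0.966) and Bbs4 (r = 0.966).

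Several members share transcript sequence, and how such reads were counted is not given in the sources used here. Reads from shared stretches could have been split or dropped. Of the 100-base windows of the Ifi211 transcript, 56.9% occur in another gene, mostly Ifi205 (37.2%) and Ifi204 (19.6%). The share was 17.9% for Ifi209, all with Ifi214, and 16.8% for Ifi204. It was 13.2% for Ifi206 and 0.813% to 8.23% for Ifi208, Mndal, Ifi213, Ifi203 and Ifi207. Aim2 shared none. With the counts of Ifi204, Ifi205 and Ifi211 added together, the log2 fold change of CM against control was 3.54 (adjusted p = 0.00361). For Ifi206, Ifi208 and Ifi213 together it was 6.58, and for Ifi209 and Ifi214 together 4.16, close to the values of the single genes.

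The other genes around Aim2 changed in part. Of 23 listed genes of the Aim2 inflammasome and related cell death, 5 were higher in CM than in control, against 4.04% of all genes. Of the 23, 0 were lower, against 1.57%, and the median log2 fold change was 0.29. The called genes were the cytokine gene Il1a at 5.99, the nucleic acid sensor Zbp1 at 3.88, the guanylate-binding protein genes Gbp5 at 3.54 and Gbp2 at 2.58, and Casp4, the mouse caspase-11, at 2.35. Pycard, the adaptor that Aim2 binds, stood at 85.1, 79.6 and 62.7 CPM in control and at 82.4, 171 and 166 CPM in CM, with CM 1 inside the control range. Its log2 fold change was 0.88 (SE 0.32, adjusted p = 0.155). The remaining steps of the pathway were chosen after their values were seen, and none of them passed the test: Casp1 had a log2 fold change of 0.26 (adjusted p = 0.510) and Gsdmd, which encodes gasdermin D, one of 0.23 (adjusted p = 0.449). Il1b, which encodes interleukin-1 beta, stood at 1.01, 0.543 and 0.428 CPM in control, at 6.34, 1.80 and 1.88 CPM in CM and at 10.9, 0.740 and 0.408 CPM with DTM. All CM libraries were above all control libraries, with a log2 fold change of 2.34 (SE 1.14, adjusted p = 0.280), and the CM plus DTM libraries were split as in several members. Il18, which encodes interleukin-18, stood at 8.67, 9.72 and 12.1 CPM in control, at 10.6, 16.2 and 18.3 CPM in CM and at 57.9, 21.3 and 23.7 CPM with DTM. Its log2 fold change was 0.56 in CM (adjusted p = 0.453) and 1.75 in CM plus DTM (adjusted p = 0.0559), each against control, and its CM plus DTM libraries were above all others. With DTM, 0 of the 23 were called against CM (6 by DESeq2). DESeq2 also called many of all genes in this comparison, and the 6 are not read as a result about the list. Relative to control 4 were higher, against 1.5% of all genes, with a median log2 fold change of 0.27. Without CM 1 and CM plus DTM 1, 9 were higher in CM than in control, against 9.62% of all genes, and 2 were lower. The 2 have no share of all genes beside them and are not read as a result about the list. In that fit 2 were lower with DTM than in CM, against 3.17% of all genes. The count of 4 fell to 0 without any 1 of the control libraries and to 1 without CM 2 or CM 3, and the count called was 9 without CM 1 or without CM plus DTM 2.

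The route from DNA sensing to interferon gave a similar count. Of 33 listed genes, 0 were lower in CM than in control, against 1.57% of all genes, with a median log2 fold change of -0.14. Higher in CM were 5, against 4.04% of all genes. They were the transcription factor gene Irf7 at 4.66, Zbp1, the DNA exonuclease gene Trex1 at 2.72, Samhd1, a dNTP hydrolase gene, at 1.04 and the kinase gene Ikbke at 0.95. Irf7 went from 24.0, 16.8 and 15.2 CPM to 228, 571 and 616 CPM, and stood at 382, 273 and 243 CPM with DTM. Tmem173, which encodes STING, had a log2 fold change of -0.02 (adjusted p = 0.968) and Mb21d1, which encodes cGAS, one of 0.49 (adjusted p = 0.238), both again named after their values were seen. With DTM, 0 of the 33 were called against CM (7 by DESeq2, 3 without CM plus DTM 2). Both of these fits also called many of all genes, and the 7 and the 3 are not read as a result about the list. Relative to control 4 were higher, against 1.5% of all genes, and this count was 2, 1 and 2 without control 1, 2 and 3. Without CM 1 and CM plus DTM 1, or without CM plus DTM 1 alone, 6 were higher and 3 lower in CM than in control. In the fit without both, the 6 stood against 9.62% of all genes. With DTM, 1 was then higher than in CM and 4 were lower, the latter against 3.17% of all genes. No such share is given for the 3, for the 1 or for the fit without CM plus DTM 1 alone. Those counts are not read as a result about the list.

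Of 27 listed interferon signalling genes 22 were tested, with a median log2 fold change of 0.44, and 14 were not called in CM. Of the 22, 0 were lower in CM, against 1.57% of all genes, and 8 were higher, against 4.04%. Besides Irf7 they included Usp18 at 4.20 and Socs3 at 2.87, which restrain the signal, Isg15 at 3.80, and Stat2 at 2.58, which carries it. The ligand genes Ifna2, Ifna4, Ifna5 and Ifng had no count in any library, and Ifnb1 had counts in only CM 3 and CM plus DTM 1, at 0.0443 and 0.108 CPM. Of 43 other interferon-stimulated genes tested, 41 were higher in CM, against 4.04% of all genes, and 0 were lower, with a median log2 fold change of 2.51. In CM plus DTM 33 were higher than in control, against 1.5% of all genes, with a median of 2.08. That count fell to 5, 2 and 8 without control 1, 2 and 3. The count of 8 signalling genes fell to 4, 3 and 3 without control 1, 2 and 3, and to 4 and 5 without CM 2 and CM 3. Against CM, 0 genes of either list were called with DTM (3 and 6 by DESeq2). But without CM 1 and CM plus DTM 1, 7 of the signalling genes and 18 of the other interferon-stimulated genes were lower. These counts stood against 3.17% of all genes. Without CM plus DTM 2, 2 signalling genes were called, and 4 of the others. That fit and DESeq2 also called many of all genes, as counted further below. Their counts in these lists are not read as a result about the lists. Some genes were counted in several lists, Irf7, Zbp1 and Usp18 among them. These lists were chosen with earlier results of these data known. The members' share of 9 in 10 thus stood beside a similar one in the other interferon-stimulated genes.

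Stat2, a subunit of the complex that binds the ISRE, differed from most members in its order across the libraries. It stood at 27.5, 35.6 and 31.6 CPM in control, at 137, 247 and 183 CPM in CM and at 17.7, 79.8 and 38.8 CPM with DTM. All CM plus DTM libraries were below all CM libraries, with a log2 fold change of -2.06 (SE 0.47, adjusted p = 0.0611), which did not pass the test. Its lowest library was CM plus DTM 1, the library in which 9 of the 10 PYHIN genes were at the highest level of their group. Stat2 was not alone in this. Irf2 and Irf5 also had their lowest library there, at 26.0 and 45.7 CPM. Irf9 went the other way, at 91.3 CPM there against 85.4 and 69.8 CPM in CM plus DTM 2 and 3. These genes were named after their values were seen, and the reason for the different orders was not tested.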

How the data were processed

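Per the labels' protocols, BMM RNA went through an mRNA library kit and DNBSEQ-T7 sequencing. The authors deposited a table of raw counts, 1 row per gene symbol. Per the submitters' processing notes, the tools were Trimmomatic (0.36), HISAT2 (2.1.0), FastQC (0.11.2) and DESeq2 (1.12.4), and the builds GRCh38 and mm39 appear without a role. Which program and annotation made the counts, and whether strand was used, is not given in the sources used here.

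The table had 51826 rows, 0 without a name, and 0 columns without a sample. No pair of libraries in a group was a copy, with 26.6 to 448 for chi-square over its degrees of freedom. In R 4.3.3, genes were kept by filterByExpr (15429), scaled by TMM and tested with edgeR 4.0.16 (glmQLFit, glmQLFTest). A single fit by group held all 9 libraries, and p-values were adjusted by Benjamini-Hochberg over all genes tested, at a threshold of 0.05. The SE is the log2 fold change divided by the square root of F, and 95% intervals come from the same fit. The procedure was first tested on simulated data. An exact test of 3 against 3 cannot go below p = 0.1.

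All 10 members are named whatever their values. From each gene list, up to 6 called genes of at least 1 CPM and up to 3 of the most abundant uncalled ones could be named, and any other is marked in the text. 1 gene of a list is left out of the text but stays in its counts. The members and lists were chosen with earlier results of these data known. Correlations used log2 CPM with a prior count of 2. Promoters came from RefSeq (GRCm38.p6) and transcripts from GENCODE vM21, longest coding transcript per gene. Alternatives were DESeq2 1.42.0 and limma-voom (limma 3.58.1), edgeR with legacy = FALSE, other scaling and filters, fits of the compared groups alone, the replicate number as a block, and each library left out. Summed counts of members with shared sequence were added after seeing the data.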

Additional observations from a re-analysis of the deposited data

How the results depend on the processing

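The number of members higher in CM than in control was 9, and 8 to 9 with each library left out. The number called in CM plus DTM against CM was 0 in all fits except that without CM 1 and CM plus DTM 1, where it was 3. In CM plus DTM against control it was 8, and 9 by DESeq2, which added Ifi207. It was 4 when only those groups were fitted and 5 with the replicate block. With each library left out it was 1 to 8 (1 without control 1 or control 2, 3 without control 3). Such fits have fewer libraries to estimate the spread, but the causes of all these shifts were not tested. Whether replicate numbers pair the libraries is not given by the labels, and not every same-numbered pair had deviations correlated above 0.1: r was 0.127, 0.142 and 0.0965 for CM and CM plus DTM, 0.297, 0.0534 and 0.197 for control and CM plus DTM, and 0.0320, 0.0379 and -0.0440 for control and CM. The first 3 were above all differently numbered pairs of those groups (-0.144 to 0.0759), a hint from the data and not from the design. Genes called over the whole table for CM against control numbered 865, from 256 (without control 2) to 2503 (without CM 1 and CM plus DTM 1), and 1937 by DESeq2. For CM plus DTM against CM they numbered 0, but 2828 by DESeq2, 1876 without CM plus DTM 2 and 776 without CM 1 and CM plus DTM 1. For CM plus DTM against control they numbered 378, from 15 (without control 2) to 1981 (DESeq2). Scaling by total counts moved the median of all genes to -0.21 and -0.24 on the log2 scale for CM and CM plus DTM against control; the members' medians were then 3.32 and 2.54.

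Only differences near 0 changed sign. For CM plus DTM against CM, Ifi213 (-0.01) was at 0.0090 with DESeq2 size factors, 0.0096 in DESeq2, 0.032 with at least 1 CPM in 3 libraries, 0.042 with those groups alone, and -1.21 to 0.36 with each library left out. Ifi209 (-0.04) was at 0.0025 with at least 1 CPM in 3 libraries, 0.013 with those groups alone, 0.012 with Ifi214 added, and -0.98 to 0.34 with each library left out. Ifi203 (-0.19) ranged from -0.80 to 0.083 with each library left out. For CM plus DTM against control, Aim2 (0.00) was at -0.26 under scaling by total counts, -0.00086 by limma-voom, -0.039 with no count filter, -0.012 with the replicate block, -0.17 without CM 1 and CM plus DTM 1, and -0.17 to 0.18 with each library left out. No other member changed sign in any comparison. Control counts of 4 to 50 limit Ifi206, Ifi208 and Ifi213.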

Other observations

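Of the other genes of the cluster, 3 were tested, and 1 was called higher in CM against control, as were 4.04% of all genes. Ifi205, whose transcript shares most with Ifi211, stood at 1.42, 1.59 and 1.67 CPM in control, at 14.1, 23.0 and 23.2 CPM in CM and at 48.3, 7.29 and 10.7 CPM with DTM. Its log2 fold change was 3.68 in CM against control (adjusted p = 0.0164) and 3.82 in CM plus DTM against control (adjusted p = 0.0265). CM plus DTM 1 was again the highest of all 9 libraries. Ifi214 stood at 7 to 11 counts in control and at 79 to 150 counts in CM, with a log2 fold change of 3.67 that did not pass the test (adjusted p = 0.0568), and at 389, 43 and 61 counts with DTM (4.50, adjusted p = 0.0481). The pseudogene Ifi203-ps had 6, 29 and 21 counts in control and 47, 68 and 81 in CM, with a log2 fold change of 2.02 (adjusted p = 0.0759). For CM plus DTM against CM the log2 fold changes were 0.14 for Ifi205, 0.83 for Ifi214 and -0.78 for Ifi203-ps, beside a median of -0.51 over the members, and none was called. Ifi202b, which encodes a HIN-200 protein without a pyrin domain, had 0 counts in 8 libraries and 4 in CM 3.

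Genes listed as neighbours of the cluster did not move in 1 direction. Of 14 tested, 2 were higher in CM than in control, against 4.04% of all genes, and 2 were lower, against 1.57%. The median log2 fold change was -0.29. The immune receptor gene Slamf8 was higher at 3.91 (adjusted p = 0.00578) and the phosphatase gene Dusp23 at 1.24 (adjusted p = 0.0138). The receptor gene Slamf9 was lower at -2.46 (adjusted p = 0.00275) and Igsf9 at -1.84 (adjusted p = 0.0197).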
